A study of Homo sapiens with 9 samples.

Results

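SUMO is a small ubiquitin-like protein that is joined to lysines of target proteins, and the transcripts described here encode part of the machinery that supplies and removes it. The 8 genes, taken by symbol from all 9 count tables, were SUMO2 and SUMO3, which encode SUMO itself, and SENP1, SENP2, SENP3, SENP5, SENP6 and SENP7, which encode SUMO proteases, 8 of 26364 genes in all. All 8 passed the filter on low counts, which kept 14738 genes for testing. A list of 22 further genes of the pathway is described after them.

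The cells were MDA-MB-231, a human breast adenocarcinoma line that lacks the hormone receptors. They stably carried a pLVX lentivirus for MEL-18 T334A, a mutant with alanine in place of a threonine that is phosphorylated in the normal protein, for the unmutated protein (MEL-18 WT), or for no protein (empty vector), and every group was grown for 48 h in medium with 10% serum before RNA was taken. Each of the 3 groups held 3 libraries, described by the submitters as biological replicates. Nothing in the labels says whether the replicates of a group came from separate transductions, so a difference between constructs cannot be told apart from a difference between transduced lines, and the p-values rest on the spread among the cultures alone. In bulk RNA, fewer cells with a transcript and less of it per cell cannot be told apart.

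SUMO proteins are made as precursors that SENP proteases trim. An activating enzyme, the heterodimer of SAE1 and UBA2, starts the transfer of SUMO, and ligases such as the PIAS proteins help it reach its target. SENP proteases also take SUMO off again, so that the modification is a balance of both activities. MEL-18, a Polycomb protein encoded by PCGF2, has been described as an inhibitor of SUMOylation that acts at the protein level. RNA levels do not report on that activity.

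Library totals ran from 31643722 to 37005302 counts. PCGF2, which checks the constructs, stood at 1389 to 1451 CPM (counts over library size, scaled by TMM) in the MEL-18 T334A libraries, at 1279 to 1292 CPM in MEL-18 WT and at 22.2 to 23.8 CPM with the empty vector. Transgene and endogenous reads were not told apart. The 6 markers of mesenchymal-like MDA-MB-231 cells, such as VIM, CD44 and AXL, stood between 175 and 1572 CPM in every library. The 6 luminal markers reached at most 15.3 CPM, with ESR1, PGR and CDH1 at or near 0 and not tested, and the 6 markers of blood, vessel and stromal cells reached at most 1.16 CPM. Markers in each of these lists also moved with the groups, outside the MDA-MB-231 list at these low levels. Of the 6 MDA-MB-231 markers, 2 rose and 3 fell at the threshold for a call in MEL-18 WT against the vector. For MEL-18 T334A, 2 rose and 2 fell against the vector, and 2 rose and 1 fell against MEL-18 WT. CAV1 changed most, at -0.26 in MEL-18 WT against the vector (edgeR adjusted p = 4.02e-08) and 0.29 between the MEL-18 groups (adjusted p = 3.86e-09). The summed luminal markers stood at 31.0 to 33.4 CPM in MEL-18 T334A, 27.9 to 29.0 CPM in MEL-18 WT and 23.4 to 25.4 CPM with the vector. Of them ERBB3 was called higher in MEL-18 T334A against the vector (log2 fold change 0.98, edgeR adjusted p = 6.68e-10) and against MEL-18 WT (0.62, adjusted p = 8.03e-07) and in MEL-18 WT against the vector (0.36, adjusted p = 0.00442), FOXA1 was called higher in MEL-18 WT against the vector (0.17, adjusted p = 0.0436), and GATA3 was not called. The summed markers of blood, vessel and stromal cells stood at 0.564 to 1.21 CPM in MEL-18 T334A, 0.679 to 1.35 CPM in MEL-18 WT and 1.72 to 2.20 CPM with the vector. Of them PECAM1 fell against the vector in MEL-18 T334A (-1.52, edgeR adjusted p = 4.69e-05) and in MEL-18 WT (-1.003, adjusted p = 0.00275). PTPRC was called only in MEL-18 WT against the vector (-1.06, adjusted p = 0.0399), where the replicates overlapped. VWF was not called in any comparison, and CD3E, DCN and LUM, at or near 0, were not tested. The part of any of these marker lists in the results below was not tested.

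The promoters of SUMO2, SENP5 and SENP6 are shown because these 3 transcripts were lower in MEL-18 T334A than in both other groups, as described further on. Each line gives the 250 bases before the RefSeq start (GRCh38.p14) on the gene's own strand, and capitals mark GGGCGG, the core of the GC box, on either strand.
SUMO2, chr17:75182960-75183209, minus strand: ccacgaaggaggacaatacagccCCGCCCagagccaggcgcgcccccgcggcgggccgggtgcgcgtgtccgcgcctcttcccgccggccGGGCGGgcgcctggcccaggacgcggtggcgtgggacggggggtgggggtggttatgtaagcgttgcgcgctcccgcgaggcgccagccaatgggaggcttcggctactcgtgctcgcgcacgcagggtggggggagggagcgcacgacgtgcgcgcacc
SENP5, chr3:196867670-196867919, plus strand: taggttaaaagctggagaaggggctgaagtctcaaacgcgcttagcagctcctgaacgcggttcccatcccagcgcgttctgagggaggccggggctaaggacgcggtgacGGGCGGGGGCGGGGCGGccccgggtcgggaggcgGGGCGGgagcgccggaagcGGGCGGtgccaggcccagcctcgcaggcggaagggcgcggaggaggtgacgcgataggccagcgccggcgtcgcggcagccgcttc
SENP6, chr6:75601630-75601879, plus strand: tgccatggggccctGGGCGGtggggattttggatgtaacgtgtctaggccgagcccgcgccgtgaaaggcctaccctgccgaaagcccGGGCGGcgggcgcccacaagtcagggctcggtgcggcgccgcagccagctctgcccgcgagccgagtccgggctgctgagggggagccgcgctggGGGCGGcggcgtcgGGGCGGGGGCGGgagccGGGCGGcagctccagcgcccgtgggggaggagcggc

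GGGCGG was found 2 times in the SUMO2 window, 5 times in that of SENP5 and 6 times in that of SENP6, matches being allowed to overlap, and 42.6% of all 35116 RefSeq windows of this length held it at least once. The 3 windows were rich in G and C, at 76.4% for SUMO2, 72.8% for SENP5 and 77.2% for SENP6, against a median of 58.0% over all windows. Among members that were not called, SUMO3 was at 78.8% with 2 matches of GGGCGG, SENP3 at 76.0% with 1, and the first of 3 SENP1 entries at 73.2% with 2. These windows were as rich in G and C, with fewer matches than those of SENP5 and SENP6. The SUMO2 window, with 2 matches, held as many as those of SUMO3 and the first SENP1 entry. The other SENP1 entries were at 67.2% and 57.2%, each with 0 matches. GACTNGACT, a motif described for mouse Mel-18, was searched on both strands and is not in these 3 windows. It stood in 0.407% of all windows. CCAAT, searched in the same way, was found 1 time, in the SUMO2 window, and in 32% of all windows. These matches describe the letters and do not show binding.

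SUMO2 encodes the SUMO form that builds chains and is taken up into conjugates under stress. It stood at 264, 262 and 278 CPM in the 3 MEL-18 T334A libraries, at 289, 285 and 297 CPM in MEL-18 WT and at 308, 297 and 305 CPM with the empty vector. Every MEL-18 T334A library lay below every other library, while MEL-18 WT and the vector overlapped. SUMO2 fell by 11.6% in MEL-18 T334A against the vector (log2 fold change -0.18 ± 0.03 SE, edgeR adjusted p = 1.86e-05) and fell by 7.65% against MEL-18 WT (-0.11 ± 0.03, adjusted p = 0.00275). Between MEL-18 WT and the vector the log2 fold change was -0.06 ± 0.03 (adjusted p = 0.115).

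SUMO3 encodes a protein nearly identical to SUMO2 in its mature form. It stood at 185, 188 and 198 CPM in MEL-18 T334A, at 191, 201 and 197 CPM in MEL-18 WT and at 209, 200.2 and 193 CPM with the vector, so that all 3 groups overlapped. It was not called in any comparison. The largest difference was that of MEL-18 T334A against the vector, at -0.08 ± 0.03 (edgeR adjusted p = 0.0633). That difference passed the threshold without empty vector replicate 3 (-0.10, adjusted p = 0.0332), without MEL-18 T334A replicate 3 (-0.10, adjusted p = 0.00832) and with no filter on low counts (-0.08, adjusted p = 0.04999). How reads that map to several places were counted is not given in the sources used here, and SUMO2 has processed pseudogenes, so a share of the SUMO reads may be counted elsewhere.

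**Figure D1:**
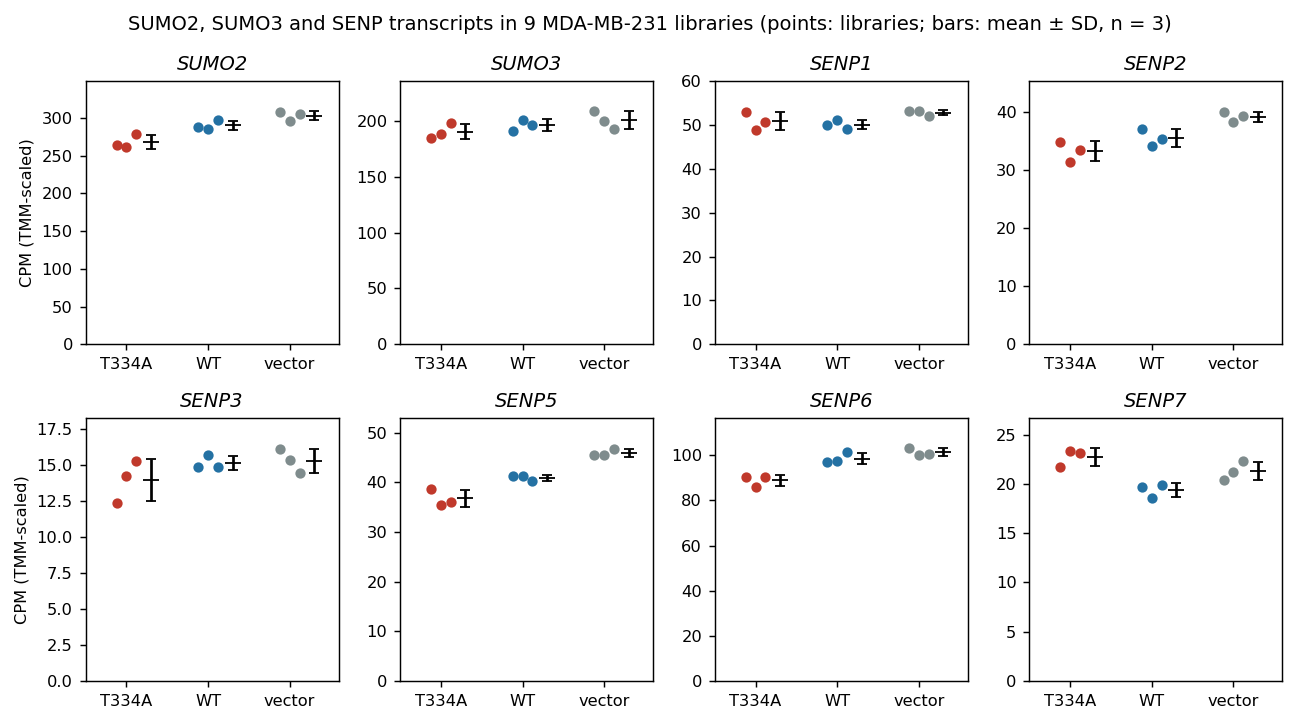
Level of the 8 transcripts in each library, in CPM scaled by TMM on axes that start at 0, with MEL-18 T334A in red, MEL-18 WT in blue and the empty vector in grey; points are libraries and black bars the mean ± SD (n = 3 per group). SUMO2, SENP5 and SENP6 are below both other groups in all 3 MEL-18 T334A libraries, SENP7 is lowest in MEL-18 WT, and SUMO3 and SENP3 overlap throughout.

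SENP1 and SENP2 encode the proteases with the broadest range, which trim SUMO precursors and remove SUMO from conjugates. SENP1 stood at 53.1, 48.9 and 50.7 CPM in MEL-18 T334A, at 49.9, 51.1 and 49.2 CPM in MEL-18 WT and at 53.1, 53.1 and 52.1 CPM with the vector. The MEL-18 WT libraries lay just under the vector libraries, and those of MEL-18 T334A overlapped both groups. No difference was called. The log2 fold change was -0.05 ± 0.04 for MEL-18 T334A against the vector (95% interval -0.13 to 0.02), -0.08 ± 0.04 for MEL-18 WT against the vector (-0.15 to -0.00048) and 0.02 ± 0.04 between the MEL-18 groups (-0.05 to 0.10), with edgeR adjusted p = 0.242, 0.129 and 0.674. PFKM overlaps SENP1 in the RefSeq annotation, and the strand setting of the counting is not given in the sources used here, so reads of the pair may be mixed.

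SENP2 stood at 34.8, 31.4 and 33.4 CPM in MEL-18 T334A, at 37.1, 34.0 and 35.3 CPM in MEL-18 WT and at 39.9, 38.2 and 39.2 CPM with the vector. Every library of both MEL-18 groups lay below every vector library, and the MEL-18 groups overlapped. SENP2 fell by 15.2% in MEL-18 T334A against the vector (-0.24 ± 0.04, edgeR adjusted p = 6.85e-05) and fell by 9.35% in MEL-18 WT against the vector (-0.14 ± 0.04, adjusted p = 0.0140). The difference between the MEL-18 groups was -0.10 ± 0.04 (adjusted p = 0.0834). The MEL-18 WT call was lost without empty vector replicate 1 (-0.12, adjusted p = 0.0651), without MEL-18 WT replicate 2 (-0.11, adjusted p = 0.108), without MEL-18 WT replicate 3 (-0.14, adjusted p = 0.0516) and with DESeq2 (-0.14, adjusted p = 0.0506). Between the MEL-18 groups SENP2 was called lower in MEL-18 T334A without MEL-18 T334A replicate 1 (-0.13, adjusted p = 0.0370).

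SENP3 and SENP5 encode nucleolar proteases that prefer SUMO2 and SUMO3. SENP5 was the member with the largest change against the vector. It stood at 38.6, 35.5 and 36.1 CPM in MEL-18 T334A, at 41.2, 41.3 and 40.2 CPM in MEL-18 WT and at 45.4, 45.5 and 46.8 CPM with the vector. No library of one group reached into another, and SENP5 was the only member whose 3 groups were all separate. It fell by 19.95% in MEL-18 T334A against the vector (-0.32 ± 0.04, edgeR adjusted p = 1.68e-07), fell by 10.8% in MEL-18 WT against the vector (-0.17 ± 0.04, adjusted p = 0.00159) and fell by 10.2% in MEL-18 T334A against MEL-18 WT (-0.16 ± 0.04, adjusted p = 0.00228).

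SENP3 was the least counted member, with 399 to 578 counts per library, and had the widest errors. It stood at 12.4, 14.2 and 15.3 CPM in MEL-18 T334A, at 14.9, 15.7 and 14.9 CPM in MEL-18 WT and at 16.1, 15.3 and 14.4 CPM with the vector. The groups overlapped, and the MEL-18 T334A libraries were the most scattered, with a coefficient of variation of 10.4%. The log2 fold change was -0.13 ± 0.07 for MEL-18 T334A against the vector (edgeR adjusted p = 0.117), -0.02 ± 0.07 for MEL-18 WT against the vector (adjusted p = 0.898) and -0.11 ± 0.07 between the MEL-18 groups (adjusted p = 0.174). Without MEL-18 T334A replicate 3, SENP3 was called lower in MEL-18 T334A against the vector (-0.20, adjusted p = 0.0173) and against MEL-18 WT (-0.18, adjusted p = 0.0267). SENP3 overlaps the readthrough gene SENP3-EIF4A1, which held 8 to 21 counts per library, and EIF4A1, a translation factor gene, is listed at 0 in all 9 libraries. How reads of this locus were divided is not known, and the SENP3 values are uncertain for that reason.

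SENP6 and SENP7 encode the members that shorten SUMO2 and SUMO3 chains. SENP6 stood at 90.2, 86.0 and 90.5 CPM in MEL-18 T334A, at 96.9, 97.3 and 101 CPM in MEL-18 WT and at 103, 100.1 and 101 CPM with the vector. The MEL-18 T334A libraries were all below the rest, and MEL-18 WT overlapped the vector. SENP6 fell by 12.3% in MEL-18 T334A against the vector (-0.19 ± 0.03, edgeR adjusted p = 2.39e-05) and fell by 9.75% against MEL-18 WT (-0.15 ± 0.03, adjusted p = 5.12e-04). Between MEL-18 WT and the vector its log2 fold change was -0.04 ± 0.03 (adjusted p = 0.370).

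SENP7 went against SENP6 between the MEL-18 groups. It stood at 21.7, 23.4 and 23.1 CPM in MEL-18 T334A, at 19.7, 18.6 and 19.9 CPM in MEL-18 WT and at 20.4, 21.2 and 22.3 CPM with the vector. The MEL-18 WT libraries were the lowest, and those of MEL-18 T334A overlapped the vector. SENP7 rose by 17.5% in MEL-18 T334A against MEL-18 WT (0.23 ± 0.05, edgeR adjusted p = 5.57e-04). In MEL-18 WT it fell by 9.09% against the vector (-0.14 ± 0.05, adjusted p = 0.0461), and in MEL-18 T334A its log2 fold change against the vector was 0.09 ± 0.05 (adjusted p = 0.128). The MEL-18 WT call was close to the threshold and was lost in 11 of 16 alternatives, among them the removal of empty vector replicate 2 (-0.14, adjusted p = 0.0996) or 3 (-0.10, adjusted p = 0.227) and of MEL-18 WT replicate 1 (-0.15, adjusted p = 0.0693), 2 (-0.11, adjusted p = 0.209) or 3 (-0.15, adjusted p = 0.0658). With library totals in place of TMM, SENP7 was called higher in MEL-18 T334A against the vector (0.13, adjusted p = 0.0382).

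**Figure D2:**
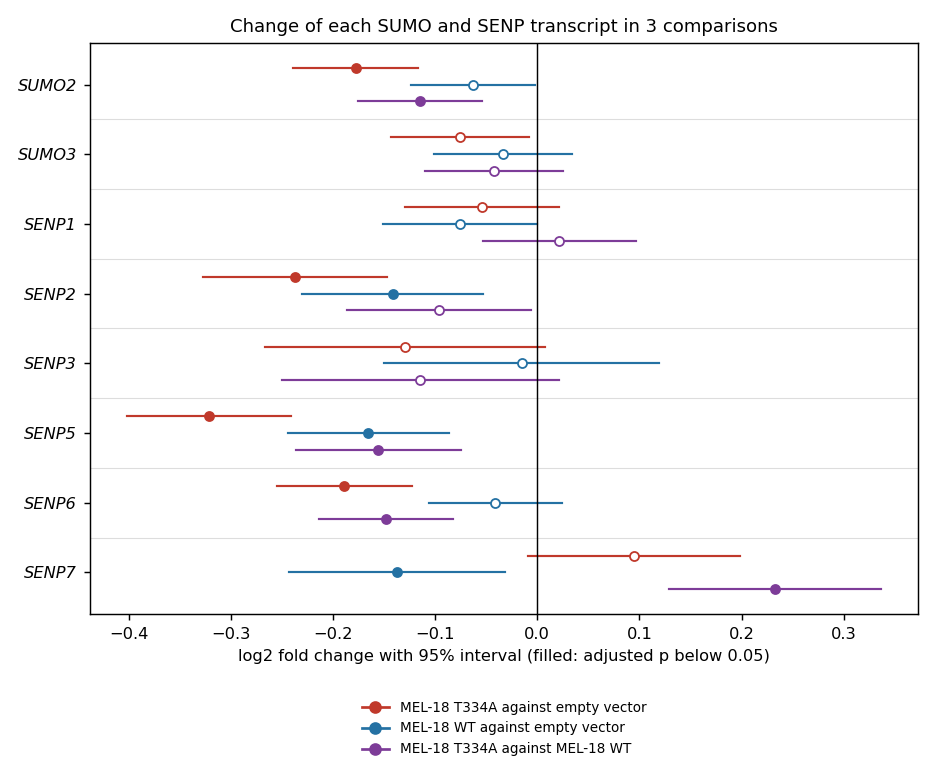
Log2 fold change of each of the 8 transcripts in the 3 comparisons, with lines for the 95% interval and filled points for an edgeR adjusted p below 0.05. All filled points lie below 0 except that of SENP7 in MEL-18 T334A against MEL-18 WT, at 0.23, and the lowest is SENP5 in MEL-18 T334A against the vector, at -0.32.

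In MEL-18 T334A against the vector, 4 of the 8 genes were called, where 45.9% of all tested genes were, so the share called was near the background. All 4 (SUMO2, SENP2, SENP5 and SENP6) were lower. Over all tested genes the calls were nearly even in direction, with 3310 lower (22.5%) and 3455 higher (23.4%). In MEL-18 WT against the vector, 3 of 8 were called, against 28.8% of all tested genes. All 3 (SENP2, SENP5 and SENP7) were lower, where 2118 of all tested genes were called lower (14.4%) and 2124 higher (14.4%). In MEL-18 T334A against MEL-18 WT, 4 of 8 were called, against 40.9%. SUMO2, SENP5 and SENP6 were lower there, as were 2944 of the 14738 tested genes, and SENP7 was higher, as were 3090. Replicates of the compared groups did not overlap for 4 of 8 members in each comparison, where 51.5%, 42.7% and 48.7% of all tested genes did not overlap in the same order of comparisons.

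The changes were small. The median log2 fold change of the 8 members was -0.15 in MEL-18 T334A against the vector, -0.07 in MEL-18 WT against the vector and -0.11 between the MEL-18 groups, while that of all tested genes was -0.0022, -0.0017 and -0.0033. By size alone, without sign, the medians of the members were 0.15, 0.07 and 0.11, beside 0.14, 0.10 and 0.12 for all tested genes. Both comparisons with the vector share the vector libraries, so their values are not independent of each other. Within MEL-18 T334A, replicate 3 stood farther from replicates 1 and 2 (chi-square per degree of freedom 3.64 and 3.98) than any of the other 7 replicate pairs, whose highest value was 2.77.

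SENP2, SENP5 and SENP7 all lie on chromosome 3, and their neighbours moved as well. In the order of the 831 tested and placed genes of that chromosome, SENP7 was number 430, SENP2 number 760 and SENP5 number 816. The 429 genes before SENP7 had a median log2 fold change of 0.11 in MEL-18 T334A against the vector, and the 401 after it a median of -0.20. In MEL-18 WT against the vector these medians were 0.06 and -0.09, and between the MEL-18 groups 0.05 and -0.10. The stretch after SENP7, which holds SENP2 and SENP5, thus had a median below 0 in all 3 comparisons.

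**Figure D3:**
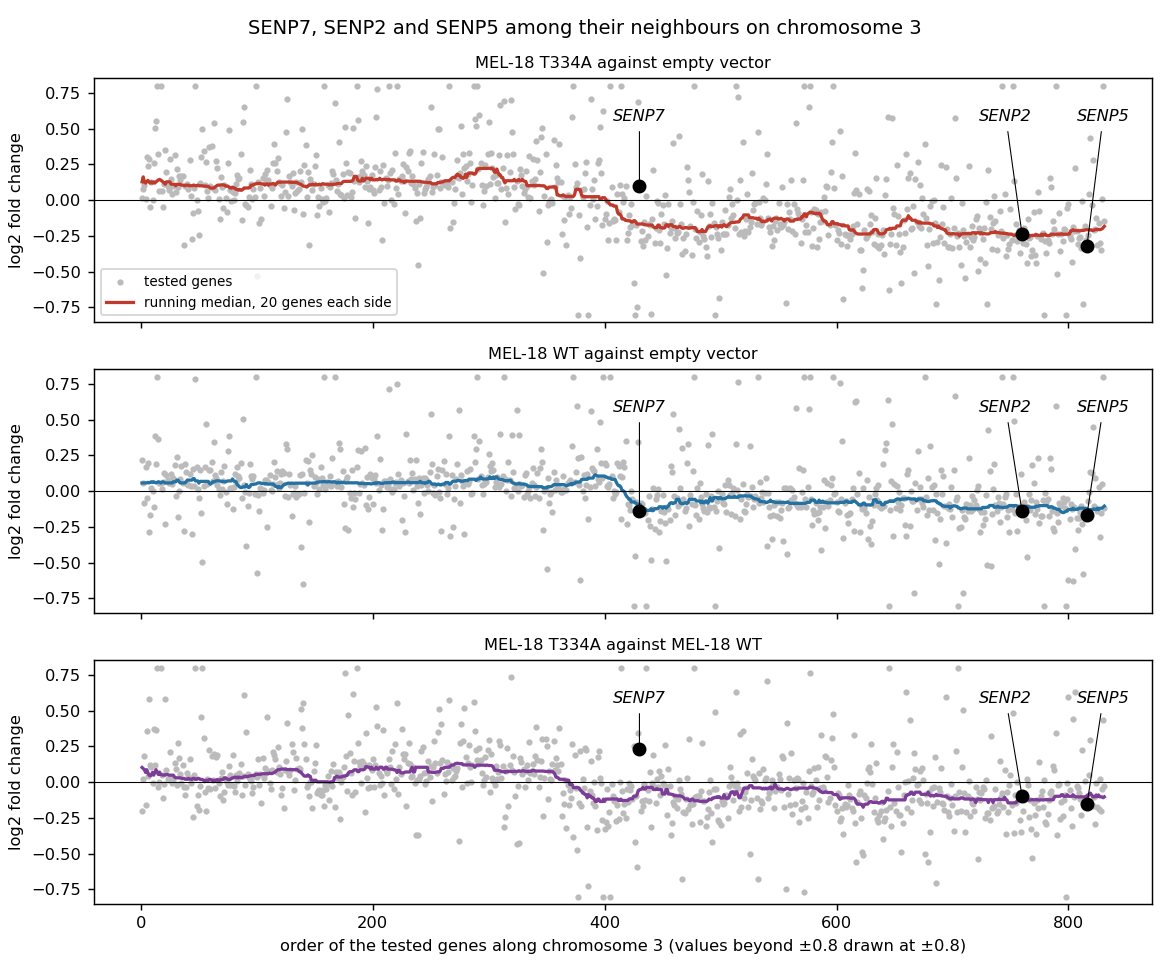
Log2 fold change of the 831 tested genes of chromosome 3 in their order along the chromosome (grey points), with the running median over 20 genes on each side (coloured line) and SENP7, SENP2 and SENP5 in black. The line lies below 0 at all genes after SENP7 in all 3 comparisons, and at SENP7 itself, and SENP7 stands above it in both panels with MEL-18 T334A.

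Around SENP2, the 40 nearest tested genes had a median of -0.25 in MEL-18 T334A against the vector, where SENP2 itself was at -0.24, and 28 of the 40 were called lower. In MEL-18 WT against the vector the neighbours' median was -0.11, where SENP2 was at -0.14. Around SENP5, 35 neighbours had medians of -0.21 and -0.12 in these comparisons, where SENP5 was at -0.32 and -0.17. With the neighbours' shift taken out of the fit, the SENP2 change against the vector was -0.0028 in MEL-18 T334A (edgeR adjusted p = 0.968) and -0.05 in MEL-18 WT (adjusted p = 0.470), so neither call remained. SENP5 kept its call in MEL-18 T334A against the vector, at a smaller size (-0.11 ± 0.04, adjusted p = 0.0245), and lost it in MEL-18 WT against the vector (-0.05, adjusted p = 0.432) and between the MEL-18 groups (-0.06, adjusted p = 0.226).

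SENP7 differed from its surroundings in the opposite way. Its 40 neighbours had a median of -0.17 in MEL-18 T334A against the vector and of -0.06 between the MEL-18 groups, while SENP7 was at 0.09 and 0.23. With the shift taken out, SENP7 was called higher in MEL-18 T334A against the vector (0.25 ± 0.05, edgeR adjusted p = 2.67e-04) and against MEL-18 WT (0.30 ± 0.05, adjusted p = 4.27e-05), and its call in MEL-18 WT against the vector was lost (-0.05, adjusted p = 0.516). These p-values take the shift as known and leave out its own error. What moves the neighbours was not tested.

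SUMO2 and SENP6 stood among genes whose medians were near 0. The 40 neighbours of SUMO2 on chromosome 17 had a median of -0.03 in MEL-18 T334A against the vector, and those of SENP6 on chromosome 6 had the same median of -0.03. With the shift taken out, SUMO2 was at -0.16 ± 0.03 (edgeR adjusted p = 8.32e-05) and SENP6 at -0.17 ± 0.03 (adjusted p = 1.35e-04) in that comparison. Against MEL-18 WT they were at -0.10 (adjusted p = 0.0119) and -0.14 (adjusted p = 0.00119). These 4 calls, with those of SENP5 in MEL-18 T334A against the vector and of SENP7 in MEL-18 T334A against MEL-18 WT, kept their direction and passed the threshold in each of the 16 alternatives, and the other calls of the members did not.

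The patterns of the 5 members with a call were set beside those of all other tested genes by Pearson correlation of log2 CPM over the 9 libraries. The libraries fall into 3 groups, so these values describe mainly 3 group levels. SUMO2 was most like SNW1 (r = 0.99) and CMPK1 (0.99) among the genes given here, and SENP5 was most like HSPH1 (0.99), ESCO1 (0.99) and GSK3B (0.99), the last also on chromosome 3. SENP6 was most like NBN (0.99), ZNF451 (0.99), a SUMO ligase gene that also lies on chromosome 6, and ATL2 (0.99). SENP2 was most like UGP2 (0.98), ADTRP (0.98) and COG4 (0.97), and SENP7 was most like CPSF4 (0.97), ZDHHC12 (0.96) and KLC2 (0.96).

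Of the 22 other pathway genes, 21 were tested, and SUMO4, with 2 to 9 counts per library, was not. In MEL-18 T334A against the vector, 7 were called lower and 2 called higher, where 45.9% of all tested genes were called in either direction. In MEL-18 WT against the vector, 4 were called lower and 1 called higher, against 28.8% of all tested genes. In MEL-18 T334A against MEL-18 WT, 6 were called lower and 3 called higher, against 40.9%. The shares called, 9, 5 and 9 of 21, were near the background in each comparison. The medians of the list were -0.05, 0.0038 and -0.05 in that order. By size without sign they were 0.08, 0.04 and 0.10, below those of all tested genes given above.

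UBA2, the catalytic subunit of the activating enzyme, averaged 151 ± 4.18 CPM in MEL-18 T334A, 152 ± 1.41 CPM in MEL-18 WT and 163 ± 3.58 CPM with the vector (SD, n = 3 each). It fell against the vector in MEL-18 T334A and in MEL-18 WT (for the WT comparison -0.10 ± 0.03, edgeR adjusted p = 0.00821, and -0.08 with adjusted p = 0.0642 without empty vector replicate 1). SAE1, its partner, was not called in any comparison.

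Ligase genes held the largest changes among the other pathway genes. TOPORS, a ligase for both ubiquitin and SUMO, averaged 78.3 ± 3.00 CPM in MEL-18 T334A, 94.3 ± 1.26 CPM in MEL-18 WT and 92.0 ± 1.41 CPM with the vector, and fell in MEL-18 T334A against the vector (-0.23 ± 0.03, edgeR adjusted p = 1.72e-06) and against MEL-18 WT (-0.27 ± 0.03, adjusted p = 2.45e-07). Its 40 neighbours had medians of -0.12 and -0.15. RANBP2, the ligase of the nuclear pore, fell in the same comparisons (-0.15 ± 0.03 and -0.18 ± 0.03). ZNF451, which builds SUMO2 and SUMO3 chains (-0.17 ± 0.03), and TRIM28, a corepressor (-0.19 ± 0.04), fell in MEL-18 T334A against the vector, and both were also called lower against MEL-18 WT. With the neighbours' shift taken out, TRIM28 lost its call against the vector (-0.02, adjusted p = 0.626), and TRIM28 and ZNF451 lost theirs against MEL-18 WT (adjusted p = 0.628 and 0.133). The TRIM28 call against MEL-18 WT was also lost without MEL-18 T334A replicate 1 (adjusted p = 0.117) or MEL-18 WT replicate 2 (adjusted p = 0.167).

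The PIAS genes encode a family of SUMO ligases. PIAS2 stood at 25.2, 26.5 and 26.0 CPM in MEL-18 T334A, at 21.6, 22.01 and 22.3 CPM in MEL-18 WT and at 22.6, 21.4 and 20.9 CPM with the vector. It rose in MEL-18 T334A against the vector (0.26 ± 0.05, edgeR adjusted p = 5.18e-05) and against MEL-18 WT (0.24 ± 0.05, adjusted p = 1.62e-04), while its neighbours on chromosome 18 had medians of 0.13 and 0.17. The call against MEL-18 WT was lost with their shift taken out (0.09, adjusted p = 0.161). PIAS3 stood at 72.3, 69.6 and 65.3 CPM in MEL-18 T334A, at 60.2, 57.1 and 58.2 CPM in MEL-18 WT and at 66.1, 71.0 and 70.8 CPM with the vector. It fell in MEL-18 WT against the vector (-0.25 ± 0.04, adjusted p = 1.96e-05) and was higher in MEL-18 T334A against MEL-18 WT (0.24 ± 0.04, adjusted p = 1.82e-05). The 40 neighbours of PIAS3 on chromosome 1 had medians of -0.11 and 0.06 in these comparisons. Neither PIAS3 call was lost in any of the 16 alternatives. PIAS1 and PIAS4 were not called in any comparison.

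**Figure D4:**
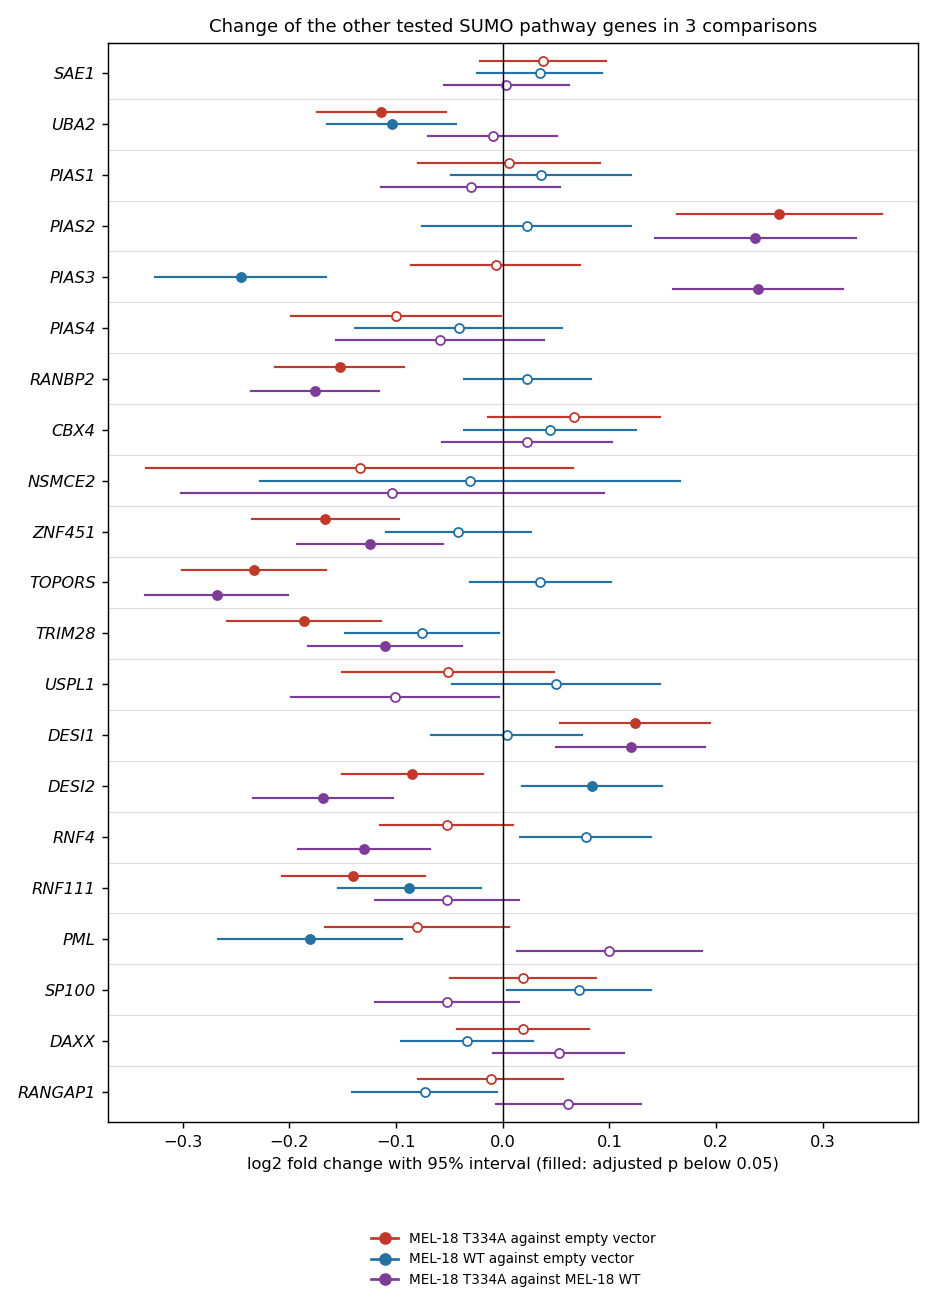
Log2 fold change of the 21 other tested SUMO pathway genes in the 3 comparisons, with lines for the 95% interval and filled points for an edgeR adjusted p below 0.05. PIAS2 at 0.26 in MEL-18 T334A against the vector and TOPORS at -0.27 in MEL-18 T334A against MEL-18 WT have the largest changes upward and downward.

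Of the SUMO proteases outside the SENP family, DESI1 rose in MEL-18 T334A against the vector and against MEL-18 WT. Both calls were lost with the neighbours' shift taken out (edgeR adjusted p = 0.478 and 0.634), and the second also without MEL-18 WT replicate 1 (adjusted p = 0.0574). DESI2 was lower in MEL-18 T334A against MEL-18 WT (-0.17 ± 0.03, adjusted p = 1.14e-04), and higher in MEL-18 WT against the vector (0.08 ± 0.03, adjusted p = 0.0489). Its call in MEL-18 WT was lost in 12 of 16 alternatives, and its call as lower in MEL-18 T334A against the vector in 6 of 16. USPL1 was not called. RNF111, a ubiquitin ligase that reads SUMO chains, fell in MEL-18 T334A against the vector (-0.14 ± 0.03, adjusted p = 9.51e-04), and its call in MEL-18 WT against the vector (-0.09 ± 0.03, adjusted p = 0.0440) was lost in 11 of 16 alternatives. RNF4, the other ligase of that kind, was lower in MEL-18 T334A against MEL-18 WT (-0.13 ± 0.03, adjusted p = 9.91e-04). PML, the scaffold of SUMO-rich nuclear bodies, fell in MEL-18 WT against the vector (-0.18 ± 0.04, adjusted p = 0.00163), and SP100, DAXX and RANGAP1 were not called in any comparison.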

How the data were processed

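The authors deposited whole-number read counts per gene symbol for 9 libraries of poly(A)-selected RNA (prepared as stranded TruSeq libraries per the labels' protocols), not normalized, made with CASAVA 1.8, STAR 2.5.3a and featureCounts of Subread 1.5.3 on hg19, per the submitters' processing notes. Annotation, strand setting and the treatment of reads with several positions were not given in the sources used here. Genes kept by edgeR's filterByExpr were scaled by TMM (factors 0.979 to 1.02) and tested with the quasi-likelihood test of edgeR 4.0.16 in R 4.3.3, two-sided, with 1 mean per group over all 9 libraries. Calls were made at an adjusted p below 0.05 (Benjamini-Hochberg) over all 14738 tested genes. The SE was obtained by dividing the size of the log2 change by the root of F. CPM are over TMM-scaled library sizes and are not per length, so levels were not compared between genes. Gene order and promoters came from RefSeq tables of GRCh38.p14, in which 97.7% of tested genes were placed and 6 of the 8 members had a promoter. For the neighbours' shift, the median deviation of 20 tested genes on each side was given to the fit as a group-wise offset. Alternatives also covered DESeq2 1.42.0, limma voom (limma 3.58.1), other scalings and filters, and the removal of each library. The fits were also run on simulated counts with the same dispersion for all genes and few changed genes. That setting is simpler than these data, and its outcome is not used here. The genes and lists were chosen with earlier results of these data known. Some genes are not reported here and were left out of the pathway list. All 8 members were described, called genes of the other pathway list could be named, values were given for up to 6 of these per comparison with the largest absolute change, and the genes most like each called member were named, up to 3 each. Replicate pairs within groups differed by more than sampling noise (chi-square per degree of freedom 1.49 to 3.98 over 9 pairs).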

Additional observations from a re-analysis of the deposited data

How the results depend on the processing

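The 24 log2 fold changes of the 8 members were computed under 16 alternatives each. Of these 384 values, 352 kept direction and side of the threshold, 19 lost the call, 8 gained one and 5, none of them called, changed sign. The sign changes were SENP2 between the MEL-18 groups with the neighbours' shift taken out (0.0466), SENP1 between the MEL-18 groups when MEL-18 T334A replicate 1 was left out (range without 1 library -0.0063 to 0.0526), and SENP3 in MEL-18 WT against the vector, at 0.0049 when scaled by library totals and from -0.0499 to 0.0251 without 1 library. DESI2, called in MEL-18 WT against the vector, was at -0.0106 with the neighbours' shift taken out. The cause of these changes was not tested.

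In MEL-18 WT against the vector, 3 members and 5 other pathway genes were called, where 28.8% of all tested genes were, and the share over all genes moved with the setting too. DESeq2 called 1 member and 3 other genes (3126 of 23067 genes, 13.6%). These 23067 were all genes with a count, including any that DESeq2's own filter left without an adjusted p. No filter gave 3 other genes (4200 of 23067 genes, 18.2%). These shares are over more genes than the 14738 of the main fit, in which 4242 were called. They are therefore not directly comparable with 28.8%. A fit of the compared groups alone gave 8 other genes (32.7%). The removal of 1 library gave 1 to 2 members and 2 to 5 other genes (23.0% to 24.3%). With the neighbours' shift taken out the edgeR count of members was 0 (21.2% of all genes), with 1 member at an unadjusted p below 0.05, while limma voom on the unshifted counts called 3 (28.6%). In the other comparisons these counts stayed within 1.5 times, at 4 to 6 and 4 to 5 members and 8 to 9 and 8 to 10 other genes without 1 library. With the replicate number as a block, 3 other pathway genes were called in MEL-18 WT against the vector (26.9% of all genes), 2 members there, and 4 members in both other comparisons. Deviations of same-numbered libraries correlated at -0.08 to 0.01, so no shared effect of the number was seen. A weak one could be missed with 3 libraries per group. Scaling by library totals made 64.0% of calls higher in MEL-18 T334A against the vector, against 51.1% with TMM, and 60.1% in MEL-18 WT against the vector, against 50.1%. The changes reported are small, and SENP3, at 399 counts in the lowest library, had the widest errors.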
